A study of Mus musculus with 5 samples.

Results

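The transcripts of mast cell proteases and receptors were followed on 5 microarrays of mouse gut, 1 array for each treatment. The set held 10 genes of 19938 measured: the mucosal mast cell chymases Mcpt1 and Mcpt2, the connective tissue mast cell proteases Mcpt4, Cma1 and Tpsb2, the tryptase Tpsab1, the carboxypeptidase Cpa3, and the receptor genes Kit, Fcer1a and Ms4a2. They were chosen by name, with earlier results of these arrays known, so that every value below is a description. Total RNA came from the gut of male ddY mice, an outbred stock, aged 5 weeks. Each group had 2 oral administrations 0.5 hours apart, and tissue was taken 4 hours after the last. The groups, named by these doses, were LG21+Asp (the probiotic strain Lactobacillus gasseri OLL2716, and aspirin), Tep+Asp (teprenone, a mucosal protective drug, and aspirin), GA+Asp (gum arabic and aspirin), LG21+GA (the strain and gum arabic) and GA+GA (gum arabic in both doses, the control).

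Mast cells are tissue immune cells that store proteases in granules and release them when the high-affinity IgE receptor is cross-linked. In mice the cells of mucosal epithelium and lamina propria are known for the chymases Mcpt1 and Mcpt2, and those of the submucosa, serosa and skin for the chymases Mcpt4 and Cma1, the tryptase Tpsb2 and the carboxypeptidase Cpa3. Mcpt1 is released into the gut lumen and blood, and transforming growth factor beta induces it in cultured mouse mast cells. The series' title concerns a probiotic strain and the effects of aspirin, and the comparisons below follow the pairs of arrays that this question sets against each other.

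Single arrays allow no test between groups, and no spread between animals was measured. The labels leave unsaid how many animals each array stands for. In whole tissue, fewer mast cells and less RNA per mast cell cannot be told apart. Values are log2 expression values, and a difference of 1 is 2-fold. Array medians lay between 6.95 and 6.98, and Xist, which male tissue does not express, stood between 4.88 and 4.91. All 10 genes were above Xist on all 5 arrays, but Ms4a2 by as little as 0.01. Only Mcpt2, Cpa3 and Kit had a mean above 7.41, the median over all genes. Exact ties between arrays were common in the deposited values, and 52.5% of genes had the same value on at least 3 arrays. For the label gut, 8 gastric markers lay between 11.66 and 13.54 on the 5 arrays and 8 intestinal markers between 4.65 (Sis) and 8.20 (Vil1), though levels of different probe sets are not on a common scale.

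Control regions of the chymases Mcpt1, Mcpt4 and Cma1 are shown first. The DNA before the starts of Mcpt1 and Mcpt4 is much alike, and any bearing of it on their values was not tested. RefSeq windows of 300 bases, from 250 before to 50 after the start of the gene in GRCm38.p6, were found for 7 of the 10 genes. There was none for the mucosal chymase Mcpt2 or for Tpsb2 and Tpsab1, so the mucosal pair could not be compared. Capitals mark 2 kinds of letters searched on both strands: AGATAA or AGATAG or TGATAA or TGATAG, bound by GATA factors such as the mast cell regulator Gata2, and the TATA box TATAAA. None of the marked sites overlapped. The Mcpt1 window is chr14:56017714-56018013 on the plus strand, the Mcpt4 window chr14:56062261-56062560 on the minus strand, and the Cma1 window chr14:55944626-55944925 on the minus strand, each written 5′ to 3′ along the gene.
Mcpt1: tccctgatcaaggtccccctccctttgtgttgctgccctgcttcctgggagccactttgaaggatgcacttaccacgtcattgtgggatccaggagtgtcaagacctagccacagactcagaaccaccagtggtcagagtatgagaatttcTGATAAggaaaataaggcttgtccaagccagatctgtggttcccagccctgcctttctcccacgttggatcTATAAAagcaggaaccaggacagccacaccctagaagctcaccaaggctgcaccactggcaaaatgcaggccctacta
Mcpt4: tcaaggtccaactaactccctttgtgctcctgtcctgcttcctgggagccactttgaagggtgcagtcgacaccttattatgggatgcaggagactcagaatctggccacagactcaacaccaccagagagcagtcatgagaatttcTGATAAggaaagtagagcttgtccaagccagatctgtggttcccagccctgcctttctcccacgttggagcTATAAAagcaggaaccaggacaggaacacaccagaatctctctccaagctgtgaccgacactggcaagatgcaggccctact
Cma1: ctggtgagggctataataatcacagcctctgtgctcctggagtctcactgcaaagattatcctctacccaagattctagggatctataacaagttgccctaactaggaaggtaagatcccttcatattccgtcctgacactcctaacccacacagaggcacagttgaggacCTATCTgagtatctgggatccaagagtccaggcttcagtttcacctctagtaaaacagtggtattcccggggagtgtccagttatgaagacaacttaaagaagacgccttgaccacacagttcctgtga

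Aligned over their whole length, the Mcpt1 and Mcpt4 windows had 249 identical bases, 83.0% of 300. Every other pair among the 7 windows had between 47.3% and 56.0%, Cma1 with Mcpt1 (55.0%) and Cma1 with Mcpt4 (56.0%) included. Both Mcpt1 and Mcpt4 carried TGATAA, 99 and 103 bases before the start, and TATAAA, 28 and 32 bases before it. Cma1 held a GATA site on the other strand, read here as CTATCT, 79 bases before the start, and no TATA box. A GATA site stood in the windows of 6 of the 7 genes, among them Ms4a2 with 3 and Cpa3 with 1 at 46 bases, and in 29.8% of all 32851 windows of the same length. The TATA box stood in 4 of the 7 and in 13.6% of all windows. The letters CATGTG, an E-box that the mast cell factor MITF can bind, were found on either strand in Fcer1a alone, against 14.2% of all windows. A match of letters is no evidence that a factor binds there.

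Mcpt1, the chymase of mucosal mast cells, varied most. It stood at 6.40 in LG21+Asp, 7.24 in Tep+Asp, 6.77 in GA+Asp, 8.45 in LG21+GA and 7.48 in GA+GA. The array with the strain and no aspirin was highest, the control came next, and all 3 aspirin arrays lay below both. Its range over the 5 arrays was 2.05, which ranked 62 from the widest among the 19938 genes. Mcpt2, the other mucosal chymase, stood at 7.94 in LG21+Asp, 8.39 in Tep+Asp, 8.46 in GA+Asp, 9.26 in LG21+GA and 8.91 in GA+GA. The same arrays were highest and lowest as for Mcpt1, and again the 3 aspirin arrays lay below the 2 without aspirin. The range of Mcpt2 was 1.33, at rank 130. The chymases are related in sequence, and how far each probe set also binds transcripts of the other was not tested.

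The connective tissue genes hardly differed between arrays. Mcpt4, the chymase of connective tissue mast cells, had 7.00 in LG21+Asp and the same value, 7.16, in Tep+Asp, GA+Asp, LG21+GA and GA+GA. Cma1, the other chymase of that subset, had 6.17 in LG21+Asp, 6.08 in Tep+Asp, 5.97 in GA+Asp, 6.08 in LG21+GA and 6.0 in GA+GA. Its highest value was on the array where the mucosal genes were lowest. Tpsb2, a tryptase known as Mcpt6, had 7.11 in LG21+Asp, 7.15 in Tep+Asp, 7.15 in GA+Asp, 7.24 in LG21+GA and 7.15 in GA+GA. The ranges of the 3 genes were 0.16, 0.20 and 0.13. All 3 had means below the median of all genes. A level above Xist need not mean that a gene is expressed. On the same arrays the 5 melanocyte markers lay between 5.05 (Tyr) and 7.02 (Pmel). Whether the values of Mcpt4, Cma1 and Tpsb2 lie above background was not tested.

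Tpsab1, the tryptase Mcpt7, had 7.28 in LG21+Asp, 7.41 in Tep+Asp, 7.41 in GA+Asp, 7.60 in LG21+GA and 7.25 in GA+GA. LG21+GA was highest, and LG21+Asp lay next to the control. Cpa3, the granule carboxypeptidase, is shared by many mast cells. It had 8.33 in LG21+Asp, 8.80 in Tep+Asp, 8.63 in GA+Asp, 8.84 in LG21+GA and 8.73 in GA+GA. Its low value in LG21+Asp stood apart, and the other 4 arrays lay between 8.63 and 8.84.

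Among the receptors, Ms4a2 encodes the beta chain of the IgE receptor. It had 4.92 in LG21+Asp, 5.13 in Tep+Asp, 5.10 in GA+Asp, 5.31 in LG21+GA and 5.22 in GA+GA, the same order of arrays as Mcpt1. That order was shared by 22 of the 4441 genes without ties, 0.495%, Mcpt1 and Ms4a2 included. For comparison, the order of Mcpt2 was shared by 0.946% of these genes and that of Cpa3 by 0.495%. The lowest value of Ms4a2, in LG21+Asp, lay only 0.01 above Xist. Fcer1a, the alpha chain that binds IgE, had 5.39 in LG21+Asp, 5.34 in Tep+Asp, 5.39 in GA+Asp, 5.39 in LG21+GA and 5.35 in GA+GA, so that 3 arrays were tied. Kit, the receptor for stem cell factor, had 9.62 in LG21+Asp, 9.62 in Tep+Asp, 9.69 in GA+Asp, 9.61 in LG21+GA and 9.54 in GA+GA. Kit did not follow the mucosal chymases: its lowest value was in the control. Kit also marks the interstitial cells of Cajal, the pacemaker cells of the gut wall, and their marker Ano1 stood between 9.58 and 9.62.

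**Figure D1:**
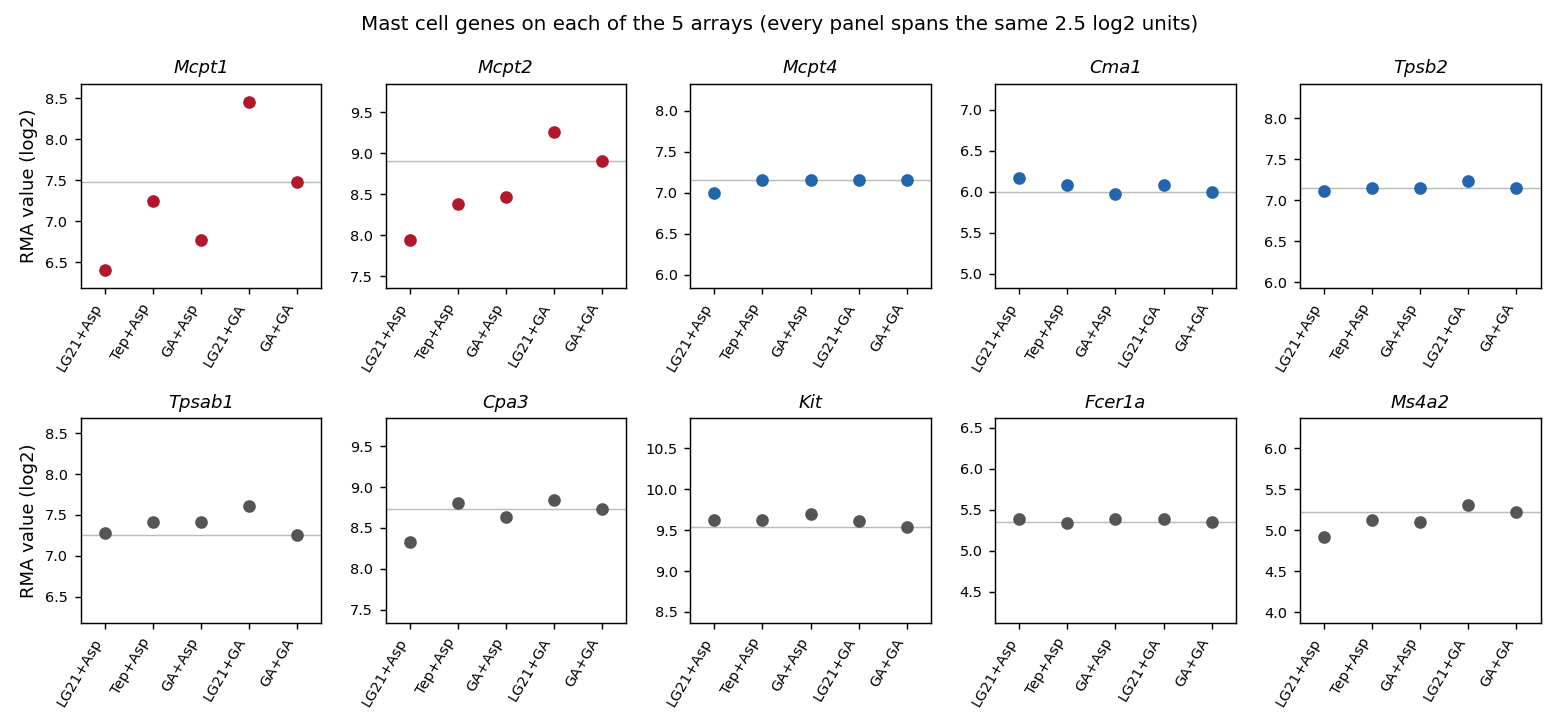
Log2 expression value (y axis) of each of the 10 genes on each of the 5 arrays (x axis), 1 point per array, with mucosal genes in red, connective tissue genes in blue and a grey line at the GA+GA value. Every panel spans the same height, and Mcpt1 and Mcpt2 spread over 2.05 and 1.33 while Mcpt4, Cma1 and Tpsb2 stay within 0.20.

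Of the 10 genes 6 had their strictly highest value in LG21+GA, against 13.7% of all genes, and 6 their strictly lowest in LG21+Asp, against 15.9%. Both held for Mcpt1, Mcpt2, Tpsb2, Cpa3 and Ms4a2, 5 of the 10, against 2.68% of all genes. The rule asks for no size of difference, and Tpsb2 met it with a range of 0.13. A tie at either end bars a gene, and 77.7% of all genes had the same value on at least 2 arrays. For these 5 genes the arrays that received the strain held both ends, without aspirin the high end and with aspirin the low end. The order of the middle 3 arrays differed between these genes. Cpa3 was higher in Tep+Asp than in GA+GA, and Mcpt2 was the one of the 5 that was lower in Tep+Asp than in GA+Asp.

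For the strain alone, LG21+GA against GA+GA, Mcpt1 was higher. Its levels were 8.45 in LG21+GA and 7.48 in GA+GA, a difference of 0.97 or 1.97-fold, which was rank 3 among 19938 genes from the highest. Mcpt2 differed by 0.35 and Tpsab1 by 0.35, ranks 64 and 68. Cpa3 differed by 0.11, Ms4a2 by 0.09, Tpsb2 by 0.09, Cma1 by 0.08 and Mcpt4 by 0.00. In all, 9 of the 10 genes lay above 0 and 0 below, with a median of 0.09. Over all genes 38.8% lay above 0 and 29.8% below, the rest were equal, and the median was 0.00. At least 1.5-fold higher was 1 of the 10, against 0.0652% of all genes. None was 1.5-fold lower, against 0.492%, and none was at least 2-fold higher, against 0.01%.

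Aspirin after the strain, LG21+Asp against LG21+GA, showed the largest differences of Mcpt1 and Mcpt2 among the 6 comparisons. Mcpt1 stood at 6.40 in LG21+Asp and 8.45 in LG21+GA, 4.13-fold lower, and was rank 2 of all genes from the lowest. Mcpt2 stood at 7.94 and 9.26 on these arrays, 2.51-fold lower, at rank 23. Cpa3 differed by -0.51, Ms4a2 by -0.39 and Tpsab1 by -0.32. Mcpt4 differed by -0.16, Tpsb2 by -0.13 and Cma1 by 0.09, and Kit by 0.01. Of the 10 genes 7 lay below 0 and 2 above, with a median of -0.24. Over all genes 33.6% lay below 0 and 39.2% above, the rest were equal, and the median was 0.00. The 2 mucosal genes were at least 2-fold lower, against 0.201% of all genes. They were also the only 2 past 1.5-fold, where 0.481% of all genes were lower, and none was 1.5-fold higher, against 0.0201%.

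Aspirin alone, GA+Asp against GA+GA, went with smaller differences of the same sign in the mucosal genes. Mcpt1 stood at 6.77 in GA+Asp and 7.48 in GA+GA, 1.63-fold lower, and Mcpt2 at 8.46 and 8.91, 1.36-fold lower. Tpsab1 differed by 0.16, Kit by 0.15, Cpa3 by -0.10 and Ms4a2 by -0.11. With a median of -0.02, 6 of the 10 lay below 0 and 3 above, against 31.4% of all genes below and 42.4% above. At least 1.5-fold lower was 1 gene, Mcpt1, against 0.853% of all genes, most of which on this pair of arrays were lower by more than Mcpt1, which had rank 144. None of the 10 was 1.5-fold higher, against 0.0602%.

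With aspirin in both arrays the mucosal transcripts were lower, not higher, with the strain. For LG21+Asp against GA+Asp, Mcpt1 differed by -0.37 and Mcpt2 by -0.53, and Cpa3 by -0.30. In this comparison 8 of the 10 genes lay below 0, against 38.1% of all genes below, 38.6% above and the rest equal. Only Cma1, at 0.20, lay above 0, and Fcer1a was equal. None of the 10 was 1.5-fold apart in either direction, against 0.316% of all genes higher and 0.266% lower.

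Tep+Asp against GA+Asp, the comparison for teprenone ahead of aspirin, split the mucosal pair. Mcpt1 stood at 7.24 in Tep+Asp and 6.77 in GA+Asp, a difference of 0.47, and Mcpt2 at 8.39 and 8.46, a difference of -0.08. Cpa3 differed by 0.17 and Cma1 by 0.11, while Mcpt4 and Tpsab1 were equal on both arrays. None of the 10 was 1.5-fold apart, against 0.321% of all genes higher and 0.0802% lower. For the strain against teprenone, LG21+Asp against Tep+Asp, Mcpt1 differed by -0.84, Mcpt2 by -0.45, Cpa3 by -0.47 and Ms4a2 by -0.21. One gene, Mcpt1, was at least 1.5-fold lower there, 1 of 10 against 0.381% of all genes, and none was 1.5-fold higher, against 0.176%. These comparisons share arrays with each other, so their values are not independent of one another.

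**Figure D2:**
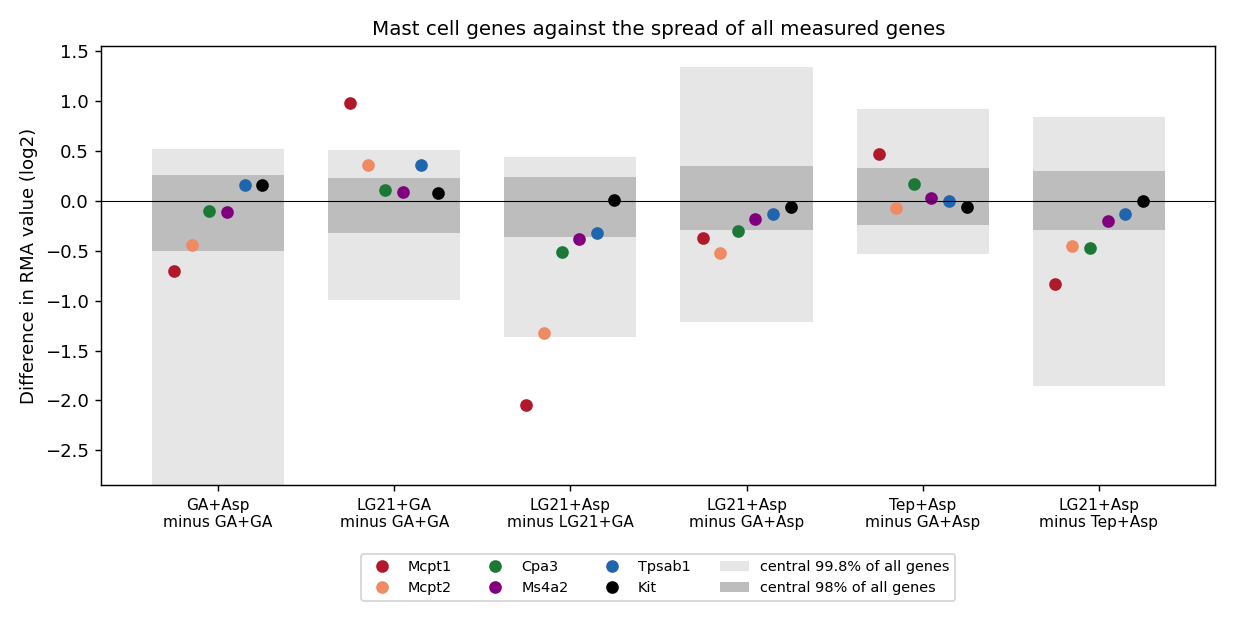
Differences in log2 expression value (y axis) for 6 of the genes in 6 comparisons (x axis), as coloured points over grey bars that hold the central 98% and the central 99.8% of all 19938 genes. Mcpt1 lies outside the wider bar at 0.97 for LG21+GA minus GA+GA and at -2.05 for LG21+Asp minus LG21+GA.

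The mucosal and connective tissue genes were set against each other by their differences, since levels of different probe sets are not on a common scale. For aspirin after the strain the mean difference was -1.69 for Mcpt1 and Mcpt2 and -0.06 for Mcpt4, Cma1 and Tpsb2, a contrast of -1.62. For aspirin alone the means were -0.57 and -0.01, a contrast of -0.56. For the strain alone they were 0.66 and 0.05, a contrast of 0.61, which was 0.30 without Mcpt1 and 0.92 without Mcpt2. In each of these comparisons the 2 mucosal genes lay beyond the whole range of the 3 connective tissue genes. That range was narrow, at -0.03 to 0.00 for aspirin alone. How often 2 genes of any kind lie apart from 3 others was not counted.

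Between LG21+Asp and GA+Asp the contrast was -0.45, and between LG21+Asp and Tep+Asp it was -0.61. Between Tep+Asp and GA+Asp it was 0.16, and there the mucosal genes, at -0.08 and 0.47, enclosed the connective tissue genes, at 0.00 to 0.11. That value was -0.11 without Mcpt1 and 0.43 without Mcpt2, so its sign rested on 1 gene. The strain by aspirin interaction, the aspirin difference with the strain minus that without it, was -1.34 for Mcpt1 and -0.88 for Mcpt2. It was -0.16 for Mcpt4, 0.13 for Cma1 and -0.12 for Tpsb2, which gave a contrast of -1.06. Mcpt1 was the only one of the 10 at least 2-fold below 0, against 0.171% of all genes.

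**Figure D3:**
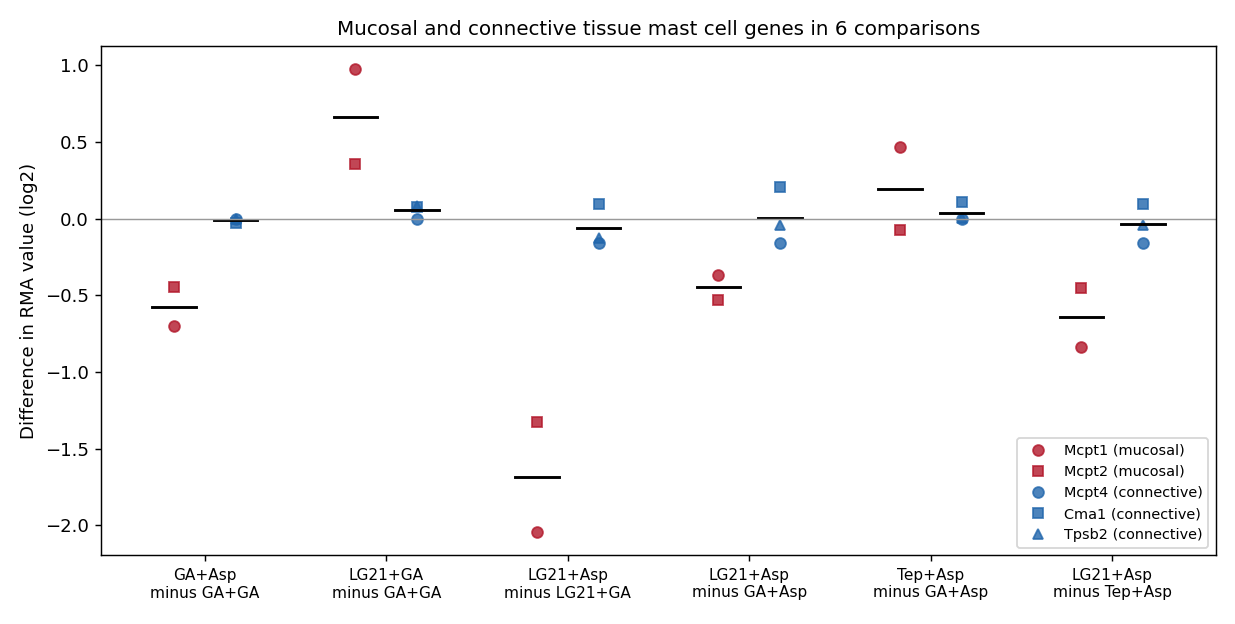
Differences in log2 expression value (y axis) of the mucosal genes Mcpt1 and Mcpt2 (red) and the connective tissue genes Mcpt4, Cma1 and Tpsb2 (blue) in 6 comparisons (x axis), with black bars at the mean of each set. The sets are furthest apart for LG21+Asp minus LG21+GA, with means of -1.69 and -0.06, and overlap for Tep+Asp minus GA+Asp.

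Mcpt1, Mcpt2, Mcpt4 and Cma1 belong to a cluster of protease genes on chromosome 14 that runs on into the granzymes of cytotoxic lymphocytes. Of 15 protein-coding genes from Cma1 to Gzmb in the RefSeq table, 13 had a probe set naming them alone. This set of neighbours was drawn up after the values were seen. Of the 11 besides Mcpt1 and Mcpt2, 4 granzyme genes (Gzmd, Gzmg, Gzmn and Gzmc) lay below Xist on all 5 arrays. These show no difference that can be read. Gzme lay below Xist in GA+GA alone, so that its differences from that array cannot be read. On the other arrays it lay between 5.14 and 5.34, with 5.18 in both LG21+Asp and LG21+GA. Among the 6 others the widest range over the 5 arrays was 0.20, for Cma1. Gzmb, which encodes granzyme B, was at 6.22 on all 5 arrays, Mcpt8, a basophil protease, between 5.21 and 5.26, and Ctsg, which encodes cathepsin G, between 5.59 and 5.71. Cma1 and Mcpt4, which lie on either side of the mucosal pair, differed by 0.09 and -0.16 for LG21+Asp against LG21+GA.

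**Figure D4:**
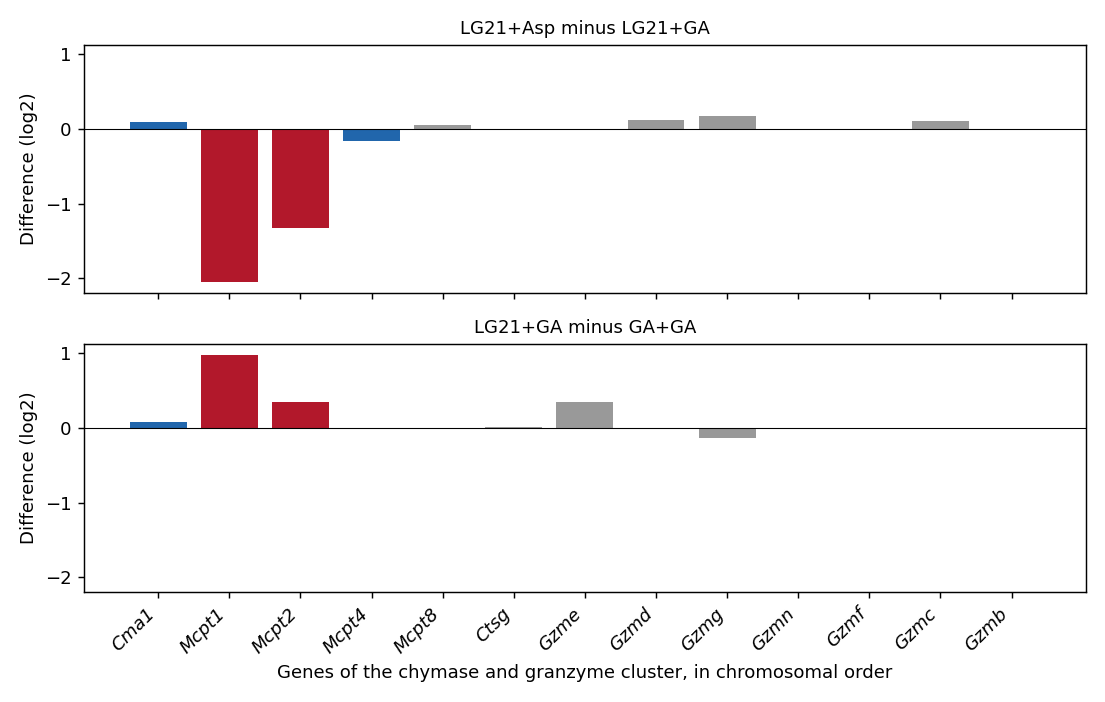
Differences in log2 expression value (y axis) for the 13 measured genes of the chymase and granzyme cluster in chromosomal order (x axis), for LG21+Asp minus LG21+GA in the upper panel and LG21+GA minus GA+GA in the lower panel. In the upper panel Mcpt1 (-2.05) and Mcpt2 (-1.33) stand out. In the lower panel Mcpt1 stands at 0.97, Mcpt2 at 0.35 and Gzme, which lay below Xist in GA+GA, also at 0.35. The neighbouring Cma1 and Mcpt4 lie within 0.16 of 0 in both panels.

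Other mast cell genes were taken from 4 lists of further proteases, mediator and granule genes, receptors and signalling, and transcription factors. Of 35 further genes 30 were measured, and 0 were 1.5-fold apart in any of the 6 comparisons, where the share of all genes was at most 0.853% in one direction. Of the 30, 2 lay below Xist on some array, where a difference cannot be read. For aspirin after the strain 17 of the 30 lay below 0 and 9 above, with a median of -0.01, against 33.6% of all genes below and 39.2% above. Srgn, which encodes the granule proteoglycan serglycin, was the lowest of them at -0.15, with 10.25 in LG21+Asp and 10.40 in LG21+GA. Fcer1g, the gamma chain of the IgE receptor, had 8.24 in LG21+Asp, 8.45 in Tep+Asp, and 8.37 in GA+Asp, LG21+GA and GA+GA alike. Both are also expressed in other blood cells.

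For the strain alone 16 of the 30 lay above 0 and 4 below, with a median of 0.01, against 38.8% of all genes above and 29.8% below. The widest was Hdc, the histamine-forming enzyme, with 9.69 in LG21+GA and 9.51 in GA+GA, a difference of 0.18. In the stomach Hdc and the vesicle transporter Slc18a2 also mark the enterochromaffin-like cells. Slc18a2 had 9.00 in LG21+GA and 8.90 in GA+GA. Hdc was lowest in the control and highest in Tep+Asp, at 9.78, an order unlike that of Mcpt1. The mast cell regulators Gata2 and Mitf differed by 0.05 and 0.01 for the strain alone.

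Among 12 genes of mast cell growth factors and type 2 cytokines, 0 were 1.5-fold apart in any of the 6 comparisons, where the share of all genes was at most 0.853% in one direction. Of the 12, 4 lay below Xist on some array, where a difference cannot be read. Il33, an epithelial and stromal alarmin that acts on mast cells, had 10.49 in LG21+Asp, 10.66 in Tep+Asp, 10.56 in GA+Asp, 9.97 in LG21+GA and 10.42 in GA+GA. It was lowest on the array where Mcpt1 and Mcpt2 were highest, with a difference of -0.46 for the strain alone and 0.52 for aspirin after the strain. Kitl, the ligand of Kit, had 9.78 in LG21+Asp, 9.81 in Tep+Asp, 9.81 in GA+Asp, 9.69 in LG21+GA and 9.78 in GA+GA. Il9, a growth factor of mucosal mast cells, stayed between 6.05 and 6.16, below the median of all genes.

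Genes whose profile over the 5 arrays was most like that of Mcpt1 were found by the distance between profiles, each centred on its own mean. Mcpt2 came first, at a distance of 0.69, where a gene with no difference between arrays has 1.56. Next were Iigp1, an interferon-inducible GTPase (0.90), Fetub, a plasma protein of liver (0.94), Cxcl9, a chemokine induced by interferon gamma (0.96), and Ly6e, an interferon-inducible surface protein (1.09). The other 5, at 1.13 to 1.14, were AW112010, H2-Eb1, of class II antigen presentation, the steroid dehydrogenase Akr1c6 and the cytochrome P450 genes Cyp2c54 and Cyp3a44. For Mcpt2 the nearest was Cxcl9 at 0.47, against 1.02 for a flat profile, followed by AW112010 (0.55), AI506816 (0.60), Pm20d1 (0.60) and Fetub (0.61). Cyp3a44 (0.66), Iigp1, Insig1, Ces1f and Mgst1 (all 0.67) completed its 10. Of the 10 nearest genes of each, 5 were on both lists. Cyp3a44, among these, lay just below Xist in LG21+Asp, so that its differences from that array cannot be read.

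Cxcl9 had 7.00 in LG21+Asp, 7.42 in Tep+Asp, 7.45 in GA+Asp, 7.95 in LG21+GA and 7.45 in GA+GA. For aspirin alone its difference was 0.00, against -0.70 for Mcpt1 and -0.45 for Mcpt2. Iigp1 had 6.37 in LG21+Asp, 7.04 in Tep+Asp, 6.34 in GA+Asp, 7.25 in LG21+GA and 6.94 in GA+GA, with a step of 0.70 between Tep+Asp and GA+Asp that Mcpt1 had as 0.47. Being at least 2-fold lower for aspirin after the strain, with LG21+GA strictly highest and LG21+Asp strictly lowest, was met by 3 genes, Mcpt1, Mcpt2 and Chil4. The rule follows the pattern already seen in Mcpt1 and Mcpt2, so that their meeting it was fixed in advance. Chil4, a chitinase-like protein with near-identical relatives that its probe set may not separate, had 4.95 in LG21+Asp, 5.65 in Tep+Asp, 6.90 in GA+Asp, 7.77 in LG21+GA and 7.01 in GA+GA. As for Mcpt1, all 3 aspirin arrays lay below both others, but the difference for aspirin alone was -0.11, and Chil4 stood near the level of Xist in LG21+Asp.

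**Figure D5:**
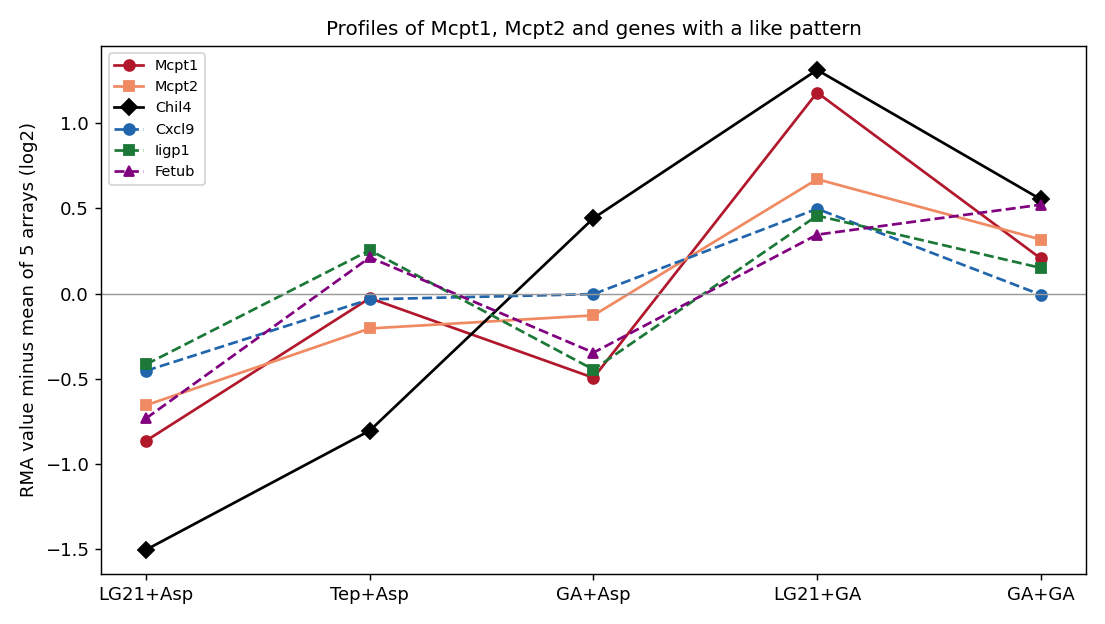
Log2 expression value minus the gene's mean over the 5 arrays (y axis) on each array (x axis) for Mcpt1, Mcpt2, Chil4 and 3 of the genes with the nearest profiles, Cxcl9, Iigp1 and Fetub. Mcpt1, Mcpt2, Chil4, Cxcl9 and Iigp1 are highest in LG21+GA, and all 6 are higher there than in LG21+Asp.

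Markers of other cell types moved between the same arrays. The LG21+Asp array, with the least Mcpt1, Mcpt2, Cpa3 and Ms4a2, was also strictly lowest in all 8 squamous epithelium markers. Their summed linear level was 1925 in LG21+Asp, 7076 in Tep+Asp, 4069 in GA+Asp, 4921 in LG21+GA and 4815 in GA+GA. For the strain alone 4 squamous markers lay above 0 and 4 below, from -0.52 (Krt4) to 0.21 (Krt10), with a median of -0.01. All 8 hepatocyte markers were strictly lowest in GA+Asp. Their summed linear level was 5818 in LG21+Asp, 2517 in Tep+Asp, 912 in GA+Asp, 9564 in LG21+GA and 13144 in GA+GA. As for Mcpt1 and Mcpt2, all aspirin arrays lay below both arrays without aspirin in each of these 8 markers. For the strain alone all 8 lay below 0, with a median of -0.68. None of these markers lay below Xist on any array, and their part in the mast cell differences was not tested.

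Markers of other granule-bearing cells went both ways. The 7 eosinophil markers had sums of 560 in LG21+Asp, 537 in Tep+Asp, 524 in GA+Asp, 563 in LG21+GA and 529 in GA+GA. Of these, 4 lay above 0 and 3 below for aspirin after the strain, with a median of 0.05. For the strain alone 5 lay above 0 and 1 below, and 3 were strictly highest in LG21+GA. Ccr3, an eosinophil receptor that some mast cells also carry, had the signs of the chymases, at 0.28 for the strain alone and -0.31 for aspirin after it. So did Alox15, a lipoxygenase, at 0.18 and -0.18. The 4 above 0 for aspirin after the strain went the other way, among them Prg2 (0.22) and Epx (0.12). All 4 were highest in LG21+Asp, where the chymases were lowest. The part of these cells in the differences was not tested. The 4 basophil markers had a median of 0.00 for aspirin after the strain, and the 7 cytotoxic lymphocyte markers a median of 0.00. The 8 gastric epithelium markers had sums between 72989 and 73741 on the 5 arrays.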

How the data were processed

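Per the labels, the authors made RMA values with Expression Console and deposited them for 5 Affymetrix Mouse Gene 1.0 ST arrays, while the series' design text names another Affymetrix tool. The deposited values were taken as log2 from their range, 1.32 to 13.87. Neither software versions nor a genome build are stated in the sources used. The authors' normalization was kept.

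Of 35557 probe sets 21789 named 1 gene symbol, 1621 several and 12147 none, by the platform annotation. Where a gene had several, the probe set with the highest mean was used, which gave 19938 genes with no filter on level. Each of the 10 genes had 1 probe set, and all 10 symbols matched the RefSeq table of GRCm38.p6. Mcpt9 and Cma2, on probe sets that name both, are not analysed here.

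The members and lists were chosen with earlier results of these data known. With 1 array per group no test was run and no p-value is given, and precision is limited by how few arrays there are. Counts of members past a fold are set beside the share of all genes past the same fold. No fold is given for a gene below Xist. Named were all 10 members, up to 4 genes of each list, the 10 nearest profiles by Euclidean distance for Mcpt1 and Mcpt2 (without predicted genes, small RNAs, segments of immune receptors and chemosensory receptors), and genes sharing the differences of Mcpt2. Promoter windows were aligned globally with Biopython 1.88 (match 1, mismatch -1, gap opening -3, extension -0.5). Alternatives were the mean of probe sets, which for these genes is the same value, median centring, and quantile and cyclic loess normalization with limma 3.58.1 in R 4.3.3. Other alternatives were the fold threshold, a filter on level and the genes in the mucosal contrast. Counting and distances were tested on simulated data.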

Additional observations from a re-analysis of the deposited data

Results flagged for a closer look

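Mcpt1 and Mcpt2 were flagged because the strain went with opposite differences without and with aspirin, each of at least 1.25-fold. Only the members were searched, and how many of all genes meet this rule was not counted. Mcpt1 differed by 0.97 for LG21+GA against GA+GA and by -0.37 for LG21+Asp against GA+Asp, an interaction of -1.34. Mcpt2 differed by 0.35 and -0.53 in the same comparisons, an interaction of -0.88. With 1 array in each group these differences between settings were not tested, and LG21+GA, the array with the highest value of both genes, enters both interactions.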

How the results depend on the processing

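No paired analysis was possible because each group has 1 array. All 210 values of single genes, over 3 alternatives (median centring, quantile normalization and cyclic loess), kept within 0.1 of the reported value, with a largest shift of 0.04. The counts of members at least 2-fold apart did not change under them. The mean of probe sets cannot change these values, since each gene has 1 probe set. The mucosal contrast depended on its genes. Without Mcpt1 it was -0.43 for aspirin alone, 0.30 for the strain alone, -1.26 for aspirin after the strain, -0.11 for teprenone before aspirin, -0.41 for the strain against teprenone and -0.83 for the interaction. Without Mcpt2 these were -0.69, 0.92, -1.98, 0.43, -0.80 and -1.29 in that order. Without Cma1 the contrast for the strain before aspirin was -0.35. With Tpsab1 and Cpa3 added to the connective tissue genes it was -1.48 for aspirin after the strain, -0.50 for the strain against teprenone and -0.90 for the interaction. Over the 6 comparisons, 301 differences between all genes were at least 2-fold, 145 with genes above the median level, 55 above the 75th percentile, 700 at 1.5-fold and 135 at 3-fold. Mcpt1 itself lies below the median level. Values near Xist, as for Ms4a2, limit what a difference can show, since a low signal compresses it.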
